A study of Ctenopharyngodon idella with 2 samples.

Results

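Genes that lie side by side and are of nearly the same length were examined in the grass carp spleen (Ctenopharyngodon idella, a freshwater fish of the carp family that is widely farmed). The members are neighbouring genes, each with at least 20 read counts over both libraries, that are separated by 0 to 20 kb and whose lengths lie within 3% of each other. By this rule 545 genes were found, of 18972 counted genes with a position and 27929 listed gene IDs, and they form 279 pairs. The other close neighbours, 11439 pairs with lengths further apart than 3%, served for comparison.

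Spleen RNA from a normal temperature treatment and a high temperature treatment was sequenced, with 1 library for each. The treatment field of the labels reads heat stress for both libraries, and the grouping rests on the source names. The temperatures and exposure times, and the strain, age and number of fish behind a library are not stated in the labels. The libraries held 16658918 and 20936717 gene counts, respectively. No difference between them has a replicate check, and the effect of temperature cannot be told apart from differences between the sampled fish or between the libraries. In tissue RNA, fewer cells of a type and less RNA per cell cannot be told apart either.

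As background, tandem duplication places a copy of a gene next to the original, and young copies usually keep the coding length of their parent. Copies may share control regions and stay alike in expression, or they may diverge in level, tissue or response. In fish, globin genes and several families of immune genes are known for such clusters. The files list genes by sequence name, start and end only. No ID could be matched to the gene table of the species' reference (0 of 27929), so no gene name, function or spleen marker can be given, and whether members of a pair are copies cannot be read from their sequences here. The build behind the positions, the exon structure and the treatment of reads that fit several copies are not stated in the labels or files, so the ratio of any gene with a near-identical copy is uncertain.

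Like length was about as frequent among close as among distant neighbours. Of 11718 adjacent pairs with a gap of up to 20 kb, 2.38% were of like length (exact binomial 95% interval 2.11 to 2.67). Of 5760 pairs with wider gaps, 2.55% were (2.16 to 2.99), which is 147 pairs. The shares were 2.69% of 2638 pairs up to 2 kb apart, 2.32% of 3755 pairs at 2 to 5 kb and 2.27% of 5325 pairs at 5 to 20 kb, with overlapping intervals. Like length within 20 kb thus did not stand out in number from like length between distant neighbours. Under the narrower limit of 1%, the share was 1.17% up to 2 kb (0.80 to 1.66) and 1.15% at 2 to 5 kb (0.83 to 1.54), against 0.657% at 5 to 20 kb (0.458 to 0.913) and 0.851% beyond 20 kb (0.63 to 1.12). These intervals take pairs as independent draws and cover only the number of pairs.

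**Figure D1:**
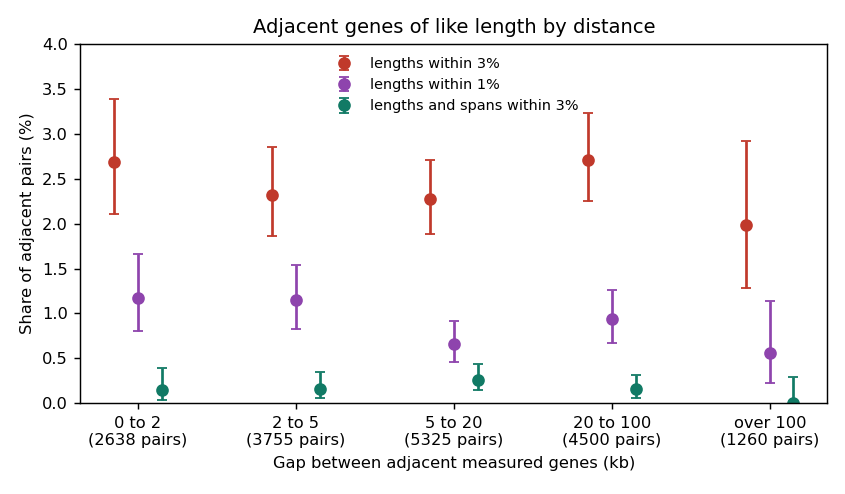
Share of adjacent measured gene pairs (vertical axis, percent) that were alike in length within 3%, alike in length within 1%, or alike in both length and span within 3%, by the gap between the genes (horizontal axis, kb). Points are shares and bars are exact binomial 95% intervals; the 3% share lies between 1.98% and 2.71% in all 5 distance classes.

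The like-length pairs were spread over 118 of the 1485 sequences with measured genes, with at most 17 members on 1 sequence. Linked by shared genes, they formed 254 groups of 2 genes, 11 groups of 3 and 1 group of 4, called arrays below. Gaps ran from 211 to 19976 bases with a median of 4451, close to the median of 4420 among unlike pairs. Member lengths ran from 253 to 5472 bases with a median of 1221, against 1209 for all measured genes. In 20 of the pairs, a listed gene with too few counts lay between the members.

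Some features beyond like length itself were shared more often in like-length than in unlike pairs. All of them involve the length that the rule matched, so they are not independent of the rule. The span of a gene on its sequence, introns included, was within 3% between the genes in 24 like-length pairs, or 8.60% (5.59 to 12.5), against 1.64% of unlike pairs (1.42 to 1.89) and 4.76% of the 147 distant like-length pairs (1.94 to 9.57). In 11 like-length pairs, or 3.94%, both lengths equalled the spans, so that no intron is seen in the ID, against 0.428% of unlike pairs and 2.04% of the distant like-length pairs. For such genes, like length and like span are the same thing. Without them, spans were alike in 13 of 268 like-length pairs, or 4.85% (2.61 to 8.15), against 1.65% of 11390 unlike pairs (1.42 to 1.90) and 2.78% of 144 distant like-length pairs (0.762 to 6.96). The last interval overlaps both of the others, and the differences were not tested. Both lengths were divisible by 3 in 187 like-length pairs, or 67.0%, in 61.2% of unlike pairs and in 63.3% of the distant like-length pairs.

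In level, most members lay in the range of the other measured genes, with a few extreme exceptions. Levels are given as scaled FPKM, which are counts divided by gene length and by library size, after TMM scaling between the libraries. The median member had 8.92 scaled FPKM over both libraries, against 8.08 for all measured genes. The central 80% of members lay between 0.776 and 64.1 in the normal temperature library and between 1.04 and 66.2 in the other. The highest member reached 37125 under normal and 9944 under high temperature. Together the members took 4.87% of all counts under normal and 3.08% under high temperature. The 13 members on CI01000113 alone held 55.5% of the member counts under normal and 23.0% under high temperature. Without them the shares of all counts were 2.17% and 2.37%.

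Few members differed clearly between the libraries. A gene was called higher or lower when the exact 95% counting interval of its scaled ratio (high divided by normal temperature) lay wholly above 2 or wholly below 0.5. Such intervals cover counting error only, and they may be too narrow, since without molecular identifiers several reads can stem from 1 molecule. By this rule 25 members were higher, or 4.59% (2.99 to 6.70), against a background of 4.89% of all 19006 measured genes. Lower members numbered 36, or 6.61% (4.67 to 9.03), against a background of 4.39%. Both totals include genes that reached the minimum count only through the library in which they are high. Such higher members had 0, 1, 3, 4, 4, 6, 9 and 11 counts under normal temperature. Such lower members had 3, 6, 6, 8 and 15 counts under high temperature. The share of such genes in the background is not given, so the totals are not free of that selection. Without CI01000113, 31 of 532 members were lower, or 5.83% (3.99 to 8.17), an interval that holds the background of 4.39%, which keeps that sequence. These share intervals take genes as independent draws, and the difference was not tested. Of 14759 close neighbour genes of unlike length only, 4.47% were higher and 4.63% lower. With library totals in place of TMM factors, which moves all log2 ratios up by 0.16, 30 members were higher, or 5.50%, against a background of 6.3%, and 27 lower, or 4.95%, against 3.29%. The higher share of the called members was 41.0% with TMM and 52.6% with totals. The same shift took the higher share among all called genes from 52.7% to 65.7%. The median member had a log2 ratio of -0.04, against -0.01 for all measured genes.

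**Figure D2:**
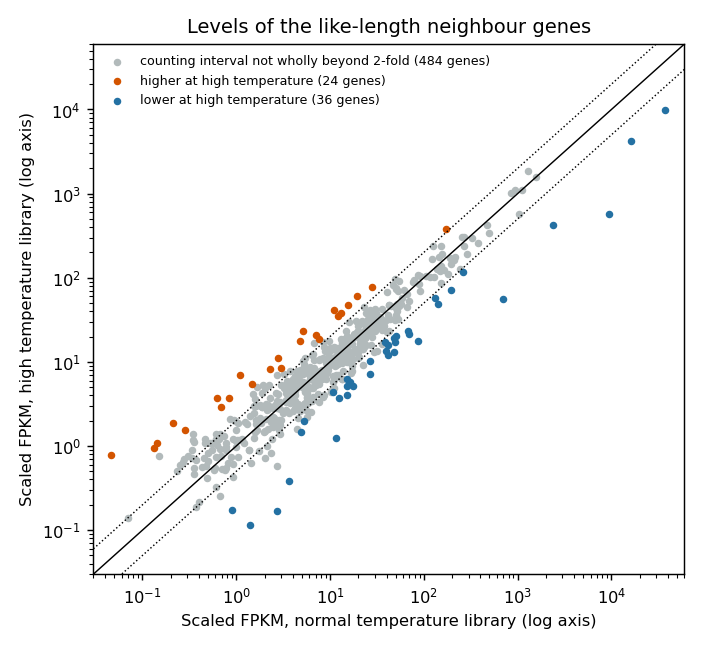
Scaled FPKM of the members in the normal (horizontal) and high temperature library (vertical), both axes logarithmic, with the line of equal level and dotted lines at 2-fold. Each point is 1 gene; 36 genes are lower, 24 of the 25 higher genes are drawn (the other had no normal temperature count), and the most abundant lower genes lie far below the line at the right.

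Called members of the 2 directions differed in counts, in part by the calling rule itself. A gene called higher has its lower level under normal temperature, and a gene called lower has its higher level there. The same counts are not given here for called genes among all measured genes. The 36 lower members had a median of 619.5 counts under normal and 270.5 under high temperature and together made up 2.83% of the normal and 0.751% of the high temperature library. The 31 of them outside CI01000113 made up only 0.136% and 0.0551%. The 25 higher members had a median of 29 counts under normal and 163 under high temperature, and made up 0.0304% and 0.0938% of these libraries. Beyond 4-fold by the same interval rule were 2 higher members, or 0.367% of 545, against a background of 1.04% of all measured genes. Lower beyond 4-fold were 7 members, or 1.28%, against 0.831%. Of these 7, the genes from 283931, 285871 and 332256 lie on CI01000113, with upper bounds of 0.0873, 0.0622 and 0.182. The excess over the background therefore leans on this sequence, and the share without it is not given.

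By the bound nearest to no difference, 4 members stood first. CI01000330_04126471_04281733, a gene of 2721 bases that spans 155263 bases, had no count under normal and 26 under high temperature, so it reached the minimum of 20 counts only through the library in which it is high. It was at least 4.66-fold higher by the lower bound of its counting interval, and 6.16-fold higher with the count of 0 set to its limit of 3 counts. Its neighbour, of 2654 bases from 4109116, had 107 and 181 counts and a ratio of 1.20 (0.941 to 1.54). CI01000004_12364142_12368537 had 23 counts under normal and 206 under high temperature, a ratio of 6.36 (4.13 to 10.3). CI01000113_00285871_00286497 had 66430 and 5659 counts and hence a ratio of 0.0605 (0.0589 to 0.0622). Its neighbour CI01000113_00283931_00284691 had 4773 and 536 counts and a ratio of 0.0798 (0.0728 to 0.0873). The first of these 4 genes did not share its neighbour's ratio, whereas the other 3 had a neighbour called in the same direction. The genes on CI01000113 are each other's neighbour, so they count as 1 pair. Over all called members, only 2 of 25 higher and 11 of 36 lower genes had a neighbour called in the same direction. The neighbour on CI01000004 reached the minimum only through the library in which it is high.

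The 2 genes of a like-length pair did not have closer ratios than the 2 genes of an unlike pair. The median absolute difference of log2 ratios within a pair was 0.68 in like-length pairs, with quartiles of 0.27 and 1.24, and 0.60 in unlike pairs, with quartiles of 0.27 and 1.15. Both genes lay on the same side of no difference in 162 of 279 like-length pairs, or 58.1% (52.0 to 63.9), and in 55.9% of unlike pairs (55.0 to 56.8). The ratio intervals of the genes did not overlap in 127 like-length pairs, or 45.5% (39.6 to 51.6), against a background of 45.5% of unlike pairs. Spearman's rho between the log2 ratios of neighbours was 0.23 over 279 like-length pairs and 0.15 over 11439 unlike pairs. Distant neighbours had rho of -0.000465 over 147 like-length pairs and 0.05 over 5613 unlike pairs. These values describe pairs that share libraries, genes and depth, and the like-length value was 0.20 without CI01000113.

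Both genes were called in the same direction in 7 like-length pairs, or 2.51% (1.01 to 5.10), against a background of 1.29% of unlike pairs. The 7 consist of 1 higher and 6 lower pairs, of which 3 lie on CI01000113. Without this sequence, 4 of 272 like-length pairs remained, or 1.47% (0.402 to 3.72), against 1.27% of unlike pairs. In 1 like-length pair the genes were called in opposite directions, or 0.358% (0.0091 to 1.98), against a background of 0.262%. A further 47 pairs, or 16.8%, held 1 called gene (15.2% of unlike pairs), and 224 held none. The number of unlike pairs with no called gene is not given, so the 224 cannot be read against a background.

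**Figure D3:**
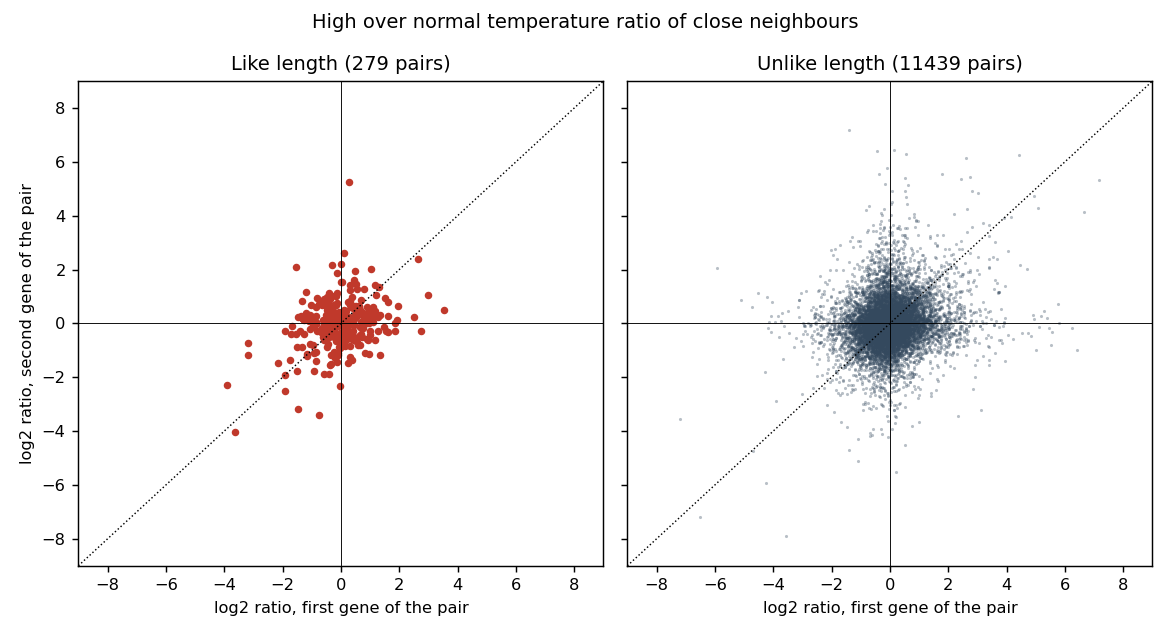
log2 ratio, high over normal temperature, of the first gene (horizontal) against the second gene (vertical) of close neighbour pairs, with like-length pairs at left and unlike-length pairs at right. Each point is 1 pair and the dotted line marks equal ratios; both clouds centre on 0 with little tilt (rho 0.23 and 0.15), and the like-length pairs along the line at lower left include those on CI01000113.

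Most classes of distance or depth gave the same picture. Up to 2 kb apart, the median ratio difference was 0.56 in 71 like-length and 0.51 in 2567 unlike pairs. At 2 to 5 kb it was 0.87 in 87 and 0.62 in 3668 pairs, and at 5 to 20 kb 0.64 in 121 and 0.64 in 5204 pairs. Grouped by the count of the sparser gene, it was 0.92 in 107 like-length pairs and 0.74 in 3708 unlike pairs under 100 counts, and 0.475 in 142 and 0.54 in 6648 pairs at 100 to under 1000 counts. At 1000 counts or more, where counting error is smallest, it was 0.85 in 30 and 0.53 in 1083 pairs. There the ratio intervals of the genes did not overlap in 26 of 30 like-length pairs, or 86.7% (69.3 to 96.2), and in 74.7% of unlike pairs (72.0 to 77.3). Of these classes, only that of 100 to under 1000 counts had a lower median in like-length than in unlike pairs, and none of the differences was tested.

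Like-length neighbours were likewise not much closer in level than unlike ones. Their scaled FPKM, averaged over both libraries, differed by a median of 3.51-fold, or 1.81 on the log2 scale, with quartiles of 0.84 and 3.11. In unlike pairs the median was 3.62-fold, or 1.86, with quartiles of 0.85 and 3.43. Levels lay within 2-fold in 85 like-length pairs, or 30.5% (25.1 to 36.2), and in 29.1% of unlike pairs (28.3 to 30.0). Very unequal pairs were the exception to this likeness. Levels more than 16-fold apart were found in 38 like-length pairs, or 13.6% (9.82 to 18.2), and in 18.9% of unlike pairs (18.2 to 19.7). The share was 18.4% of the distant like-length pairs (12.5 to 25.6). Spearman's rho between neighbour levels was 0.29 over like-length pairs, 0.11 over unlike pairs and 0.13 over distant like-length pairs. With levels not divided by length, rho was 0.26 over like-length and 0.09 over unlike pairs.

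Like-length pairs in which both genes were abundant were more alike in level. Where the sparser gene had at least 1000 counts, a class formed after the values were seen, the median level difference was 1.69-fold in 30 like-length pairs and 2.81-fold in 1083 unlike pairs. Levels within 2-fold were found in 17 of the 30, or 56.7% (37.4 to 74.5), against 33.9% of unlike pairs (31.1 to 36.8), and rho was 0.80 against 0.14. Without CI01000113 rho was 0.76 over 27 pairs. Levels divide counts by the length that the rule matched, so this likeness is not independent of the rule. Levels without length were not compared in this class. In the same class the ratios were no closer than in unlike pairs, as given above, and their rho was 0.22 against 0.14, or -0.07 without CI01000113. In the sparser classes like-length and unlike pairs were nearer to each other in level. Under 100 counts the medians were 7.07-fold and 7.63-fold, and rho of levels was -0.44 and -0.46. At 100 to under 1000 counts they were 2.52-fold and 2.92-fold, with rho of 0.12 and -0.05. Levels stem from the counts that form the classes, so the grouping also shapes rho.

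**Figure D4:**
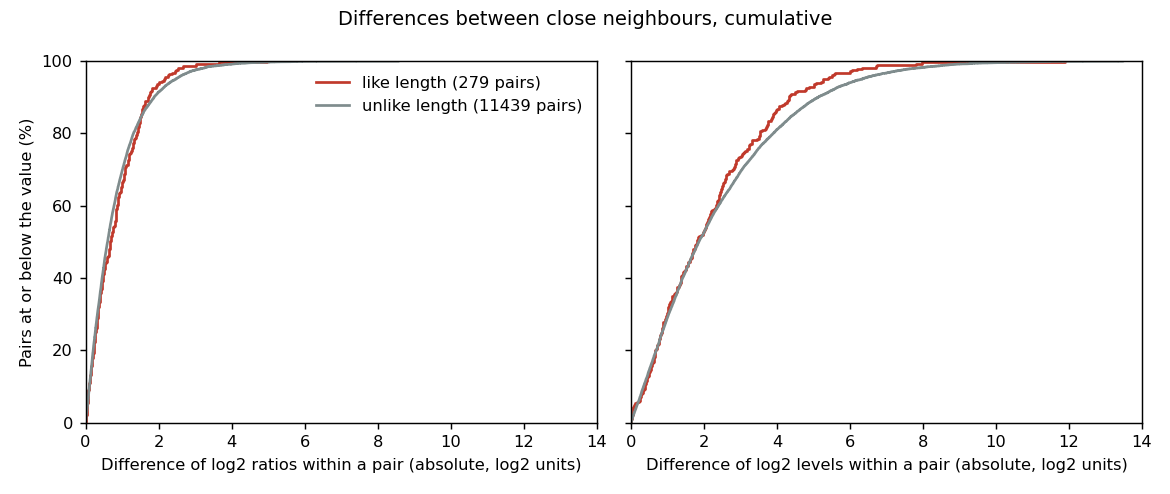
Cumulative share of close neighbour pairs (vertical axis, percent) by the absolute difference within a pair of log2 ratios (left) and of log2 levels in scaled FPKM (right). The like-length and unlike-length curves run close together, with medians of 0.68 and 0.60 for ratios and 1.81 and 1.86 for levels; beyond 4 log2 units of level the like-length curve lies above.

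Arrays with the most genes or the most counts are described by sequence and position. On CI01000306, from 2107105 to 2121990, 4 consecutive genes of 543 to 546 bases formed the array with the most genes. From left to right they had 23, 20, 100 and 1113 counts under normal and 7, 10, 15 and 696 under high temperature. All 4 ratios lay below 0.5, at 0.216 (0.0784 to 0.521), 0.355 (0.149 to 0.795), 0.107 (0.0575 to 0.184) and 0.444 (0.404 to 0.489). Only the last 2 genes were called lower, since the other intervals reach above 0.5. All but the last gene reached the minimum of 20 counts only through the normal temperature library, in which they are high. The intervals of the last pair do not overlap, although both genes are 543 bases long. The levels within this array differed up to 59.6-fold, and the summed ratio of 0.412 (0.375 to 0.452) passed the 2-fold bound with TMM but not with library totals.

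The most abundant array lay on CI01000113, from 324040 to 333023, with 3 genes of 432, 429 and 432 bases. They had 252481, 108933 and 16343 counts under normal and 95174, 40273 and 4034 under high temperature. Their levels had the same order, with 37125, 16129 and 2403 scaled FPKM at normal temperature. The ratios were 0.268 (0.266 to 0.270), 0.263 (0.260 to 0.266) and 0.175 (0.169 to 0.182), so all 3 genes were lower. The first and second ratios were close but not equal, and the third was clearly lower. At lower positions on the same sequence lies the pair from 283931 to 286497, of 432 and 444 bases, whose ratios of 0.0798 and 0.0605 were lower again. Its summed counts were 71203 under normal and 6195 under high temperature, which is 16.2-fold lower, against 3.81-fold for the array of 3. The sums blend genes of unlike ratio.

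The other 2 of the 4 arrays with the most counts joined genes of very unequal level. On CI01000006, from 12550833 to 12581457, a gene of 1371 bases had 28036 counts under normal and 56231 under high temperature, a ratio of 1.43 (1.40 to 1.45). Its neighbour of 1383 bases had 1 and 24 counts and a ratio of 17.1, with a wide interval of 2.78 to 701. This neighbour was called higher, but it reached the minimum only through the high temperature library, in which it is high. The levels of this pair were 3799-fold apart. On CI01000119, from 56143 to 89422, a gene of 1365 bases had 33892 and 48222 counts and a ratio of 1.01 (0.997 to 1.03). Its neighbour of 1329 bases had 483 and 1313 counts, with a ratio of 1.93 (1.74 to 2.15), and the levels were 46.9-fold apart.

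The 12 arrays of 3 or more genes had summed ratios from 0.262 to 1.26. On CI01000009, from 10376105 to 10411388, 3 genes of 2034 to 2071 bases had 5007, 59 and 263 counts under normal and 3934, 86 and 348 under high temperature. Only the abundant gene had an interval that left out 1, with a ratio of 0.558 (0.535 to 0.582), and none of the 3 was called. On CI01000005, from 6375778 to 6403709, 3 genes of 672, 669 and 669 bases had 540, 175 and 1275 counts under normal and 301, 280 and 2461 under high temperature. Their ratios were 0.396 (0.343 to 0.457), 1.14 (0.938 to 1.38) and 1.37 (1.28 to 1.47), so the first gene was called lower and the others were not called.

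Among all 266 arrays, 213 held no called gene, 1 had all genes higher and 4 had all genes lower. Arrays of unlike neighbours were not formed, so these counts have no background. Shares by pair are given above against unlike pairs. The array of higher genes lay on CI01000004, from 12364142 to 12381495, with lengths of 1326 and 1356 bases. Its genes had 23 and 6 counts under normal and 206 and 47 under high temperature, and the summed ratio was 6.20 (4.21 to 9.45). The second gene reached the minimum only through the high temperature library, in which it is high. Of the lower arrays, 2 are those on CI01000113. The third, on CI01000436 from 64023 to 75313, joined genes of 1599 and 1560 bases whose lengths equal their spans. They had 69 and 22 counts under normal and 6 each under high temperature, a summed ratio of 0.0937 (0.0467 to 0.172). Both reached the minimum only through the normal temperature library, in which they are high. The fourth, on CI01000299 from 4158468 to 4175441, had genes of 1491 and 1509 bases with 383 and 422 counts under normal and 191 and 175 under high temperature. Their ratios were 0.354 (0.296 to 0.423) and 0.295 (0.246 to 0.352), and their levels differed 1.04-fold. Among the 7 pairs called in the same direction, this one was the closest in level.

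The pairs with ratio intervals farthest apart show how far like-length neighbours could differ. On CI01000001, genes of 1659 and 1665 bases that start at 3455306 and 3465138 had 1786 and 22 counts under normal and 857 and 136 under high temperature. Their ratios were 0.341 (0.314 to 0.370) and 4.39 (2.79 to 7.24), with intervals 7.53-fold apart, and this was the pair called in opposite directions. On CI01000319, genes of 685 and 702 bases from 4949418 and 4960448 had 528 and 2864 counts under normal and 1452 and 1825 under high temperature. The ratios were 1.95 (1.77 to 2.16) and 0.453 (0.427 to 0.480). On CI01000018, genes of 561 and 562 bases from 2125709 and 2129101 had 171 and 1312 counts under normal and 747 and 1494 under high temperature. The ratios were 3.10 (2.63 to 3.69) and 0.809 (0.751 to 0.872).

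**Figure D5:**
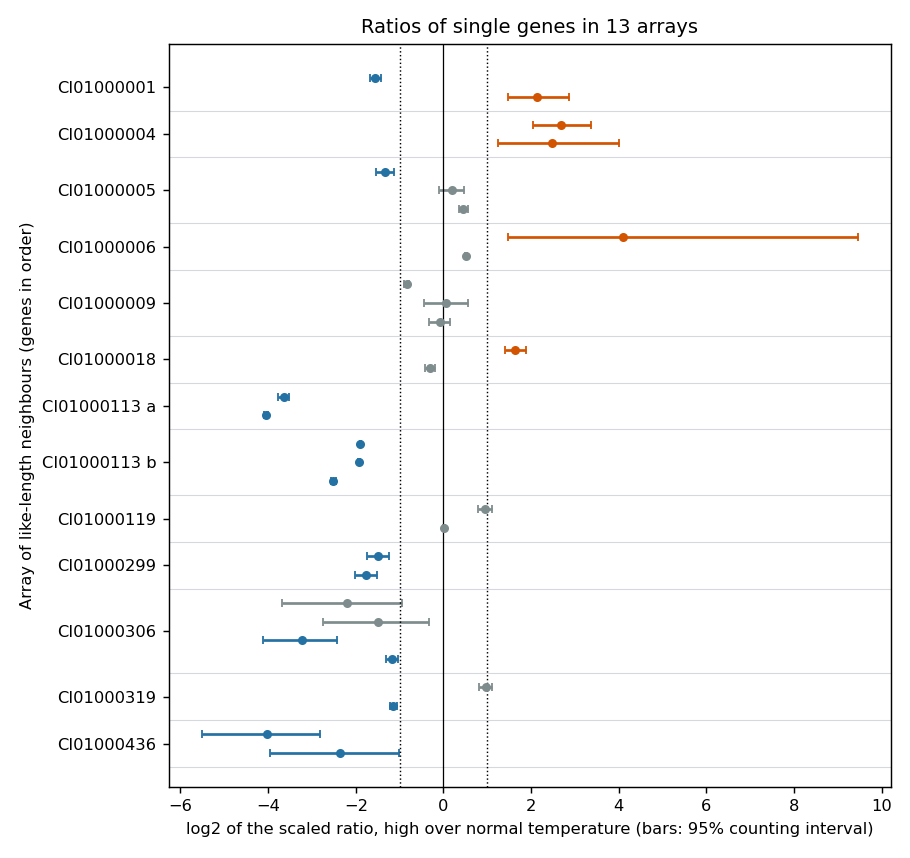
The log2 ratio (high divided by normal temperature) of each gene in the 13 arrays described, with genes in order along the sequence and bars for the exact 95% counting interval. Orange genes are higher and blue genes lower by more than 2-fold (dotted lines) beyond counting error, and grey genes were not called. In 5 of the arrays all genes are orange or all are blue, whereas the 2 genes on CI01000001 lie on opposite sides.

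Equal length did not bring equal ratios. In 14 pairs the lengths were the same in whole bases, and in these the log2 ratio difference ran from 0.03 to 2.67 with a median of 0.98, while levels were 1.03-fold to 27.4-fold apart. Both genes lay on the same side of no difference in 10 of the 14. In 3 examples chosen after their values were seen, the pairs behaved differently. On CI01000039, 2 genes of 1365 bases from 511751 and 521668 had 186 and 26 counts under normal and 224 and 33 under high temperature, with ratios of 0.856 (0.701 to 1.05) and 0.902 (0.523 to 1.57). On CI01000049, 2 genes of 570 bases from 7723874 and 7726983 had 10016 and 447 counts under normal and 13994 and 395 under high temperature, with ratios of 0.993 (0.968 to 1.02) and 0.628 (0.547 to 0.721). On CI01000027, 2 genes of 1170 bases whose lengths equal their spans, from 6066013 and 6074183, had 100 and 26 counts under normal and 84 and 3 under high temperature, with ratios of 0.597 (0.441 to 0.806) and 0.0820 (0.0159 to 0.268). The second gene on CI01000027 reached the minimum only through the normal temperature library, in which it is high.

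Around the limit of 3%, pairs on both sides are given as examples. Just inside, at 2.99%, genes of 1404 and 1362 bases on CI01000203 had ratios of 1.42 and 1.55, and genes of 903 and 876 bases on CI01000030 had ratios of 1.31 and 0.662. Just outside, at 3.02%, genes of 3781 and 3667 bases on CI01180000 had ratios of 1.26 and 0.544, and genes of 1542 and 1590 bases on CI01000004 had ratios of 1.42 and 0.757.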

How the data were processed

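Per the labels' protocols, Trizol was used to extract the spleen RNA and a standard Illumina preparation to build libraries. The submitters' processing notes name CASAVA 1.7 and HISAT; counting tool, build and annotation are not stated there. As deposited, the tables hold raw read counts and the authors' FPKM values, the second used here only to recover gene lengths. Length was the count divided by the FPKM and by the deposited count total, from the library with the higher count; it lay within 0.2 bases of a whole number for 542 of 545 members.

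Counts were scaled with edgeR 4.0.16 TMM factors (R 4.3.3), with a prior count of 0.5 in log2 ratios. With 1 library per treatment, edgeR's tests were not fitted and no p-value is given. Ratio intervals are exact Clopper-Pearson 95% intervals of the high temperature share of a gene's counts. The limit set by 0 reads was taken as 3 counts, which is 0.18 CPM in the normal and 0.143 CPM in the high temperature library. Neighbours were ordered by start within a sequence; 9 overlapping pairs and 77 IDs without a position were left out. The calling and pairing steps were tested on simulated data with counting noise only and with like-length pairs built to share a ratio. That run checks the code, and it holds no spread between fish or libraries. Described in full are the 4 arrays with the most genes and the 4 with the most counts, up to 4 arrays with all genes called each way, the 3 pairs with intervals farthest apart, and 2 IDs in each direction. The members and lists were chosen with earlier results of these data known. Alternatives were DESeq2 1.42.0 size factors, library totals, upper quartile scaling, and other minimums, bounds, length limits, gaps and pairings.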

Additional observations from a re-analysis of the deposited data

How the results depend on the processing

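Across 22 alternatives, of which leaving out CI01000113 and leaving out pairs whose lengths both equal their spans were chosen after seeing the data, the median ratio difference of like-length pairs lay above that of unlike pairs in 13 of 13 settings that moved either value. Counted in the same way, the like-length value was the higher in 13 of 16 settings for the same direction share, 18 of 18 for the share called the same way, 3 of 17 for the median level difference, 12 of 13 for rho of ratios and 17 of 17 for rho of levels. Most settings reuse largely the same pairs, and all use the same libraries, so these tallies are not repeated support. Without CI01000113 the share called the same way was 1.47% (0.402 to 3.72), an interval that holds the 1.27% of unlike pairs. Scaling moves both genes of a pair alike, so ratio differences do not depend on it.

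Higher and lower members numbered 10 and 14 of 211 with lengths within 1%, 41 and 55 of 915 within 5%, 0 and 4 of 28 at equal length, 11 and 19 of 312 with gaps to 5 kb, and 6 and 18 of 198 with 1 measured gene between, where neighbours are not adjacent. A minimum of 100 counts gave 14 and 34 of 361. The 4-fold bound gave 2 and 7 of 545, or 0.367% and 1.28%, against a background of 1.04% and 0.831% of all measured genes. The 7 lower members include genes on CI01000113, as given above. The point ratio without an interval gave 59 and 65 of 545. Settings of length, gap and pairing leave the background of all measured genes at 4.89% higher and 4.39% lower. For the minimum of 100 counts and the point ratio the background is not given, so those counts cannot be set against one.

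At equal length, like-length pairs had a median ratio difference of 0.98, 71.4% in the same direction and 7.14% called the same way, over 14 pairs. With 1 gene between, the same direction share was 47.5% of 99 like-length and 52.2% of unlike pairs. Called the same way were 3.03% of these like-length pairs (0.629 to 8.60) and 0.489% of the unlike ones. The unlike medians were 0.65 for ratios and 2.01 for levels. The 4-fold bound left 0.358% and 0.201% of like-length and unlike pairs called the same way, and the point ratio 6.45% and 3.65%. A 99% interval left 1.43% of like-length and 0.97% of unlike pairs. A minimum of 1 count gave ratio medians of 0.87 and 0.82 and level medians of 2.49 and 2.74. It left 1.56% of like-length and 0.824% of unlike pairs called the same way. A minimum of 100 counts gave level medians of 1.31 and 1.54 and an unlike ratio median of 0.54, and one of 10 counts gave unlike medians of 0.64 and 2.05. Gaps to 5 kb gave unlike medians of 0.57 and 1.75 and 57.4% in the same direction, and gaps to 50 kb 0.62. A prior count of 2 gave 0.585. Levels without length gave an unlike median of 1.94, and levels at normal temperature 1.98. Some settings add or remove members and pairs, and the cause of these shifts was not tested. Counting noise limits sparse pairs, and no setting replaces a second library. No paired analysis was possible because the groups hold 1 library each.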
